A study of Gallus gallus with 6 samples.

Results

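Macrophages from the ileum of broiler chickens injected with LPS, the bacterial endotoxin lipopolysaccharide, are described here from their 3 RNA-seq libraries, out of 6 libraries in the series. The 3 were taken by their treatment label and go by the names LPS1, LPS2 and LPS3, after the columns of the deposited table. The other 3, from birds that were also gavaged with the bacterium Lactobacillus reuteri, were not used. Cells were collected by flow cytometry with the antibody KUL01, and the libraries were made from polyadenylated RNA. The labels give no dose, time after injection, age or sex for the birds, do not say that the libraries came from separate birds, and name no uninjected group. The values are therefore levels in exposed birds and not responses to LPS, and the spread between libraries may be technical.

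Macrophages of the gut wall take up microbes and dying cells, break them down in lysosomes, present peptides on MHC class II and recycle the iron of engulfed cells. LPS is sensed through the receptor TLR4, and in macrophages this sets off transcription of cytokines and chemokines such as interleukin 1 beta. KUL01 binds a receptor of the mannose receptor family and labels chicken mononuclear phagocytes.

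The table lists a read count and an FPKM value for each of 27656 genes, FPKM being a fragment count scaled to transcript length and to the mapped fragments of the library. Total counts were 40542094, 38492909 and 44786499 in LPS1, LPS2 and LPS3, and values given as 3 numbers below follow this order. A count was recorded for between 23087 genes (LPS3) and 23525 genes (LPS1), and 1226 genes had none in any of the 3. At this depth the counting error of a class share, as a 95% Wilson interval, was at most 0.0152 percentage points to either side, and 3 counts, the most that a count of 0 allows, correspond to 0.0670 to 0.0779 CPM, counts scaled to a library's total. Both cover counting error only, since reads without molecular identifiers are not independent molecules.

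The 3 leading macrophage markers were abundant in all 3 libraries, while the other markers spanned a wide range of levels. CSF1R, whose product binds the growth factor CSF1 (ENSGALG00010016804, chromosome 13, 12876768 to 12897373, plus strand), had 286, 356 and 284 FPKM, a mean of 309 ± 41.3 FPKM (SD, n = 3). The cysteine protease gene CTSS (ENSGALG00010028761, chromosome 25, 2545635 to 2550473, minus strand) had 2489, 1573 and 1383 FPKM, and the cytokine gene IL1B (ENSGALG00010018460, chromosome 22, 4457504 to 4459409, minus strand) had 1555, 1699 and 2173 FPKM. CSF1R was highest in LPS2, CTSS in LPS1 and IL1B in LPS3, so the 3 markers did not rank the libraries alike. The macrophage transcription factor gene SPI1 had 318 ± 19.1 FPKM. The scavenger receptor gene MARCO had 184 ± 21.2 FPKM, the complement receptor gene VSIG4 169 ± 43.3 FPKM, the apoptotic-cell receptor gene MERTK 107 ± 22.9 FPKM, and the phosphatidylserine receptor gene TIMD4 91.4 ± 22.0 FPKM. Lower levels were found for MPEG1 (51.4 ± 10.3 FPKM), CYBB (48.5 ± 11.2 FPKM) and CD14 (27.1 ± 7.03 FPKM). All 3 leading markers and all 13 other macrophage markers reached 1 FPKM on average. MMR1L4, a member of the mannose receptor family to which the KUL01 antigen belongs, was low beside them at 12.7, 11.03 and 17.8 FPKM. Reads of such similar genes can be divided differently by the counting, so its value is uncertain.

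Nuclear protein-coding genes supplied most of the counts, and the 37 genes of the mitochondrial chromosome supplied more than any of the remaining classes. Protein-coding genes together took 93.9%, 94.9% and 95.2% of counts, a mean of 94.7% ± 0.699 (SD, n = 3). Mitochondrial genes took 13.2%, 14.0% and 12.1% of counts, with LPS2 highest and LPS3 lowest. Long noncoding RNAs made up 38.3% of the genes in the table and 2.06%, 2.25% and 1.97% of the counts. Only 381 of the 10579 lncRNA genes reached a mean of 1 FPKM, against 9009 of 16246 protein-coding genes, and 9580 genes of all classes did. Genes without a symbol were 51.8% of the table and took 12.5%, 10.5% and 10.4% of counts.

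Nuclear ribosomal RNA took its largest share of counts in LPS1. The 96 nuclear rRNA genes took 2.65%, 1.74% and 1.79% of counts in polyA-selected libraries. A further 25 genes annotated as protein-coding overlap rRNA genes in the table, and they took 1.16%, 0.557% and 0.857%. Both were highest in LPS1, as was mitochondrial rRNA in sum at 1.35%, 1.06% and 0.955%. Its 2 genes differed. ENSGALG00010000005 took 1.04%, 0.849% and 0.639% of counts, while ENSGALG00010000003 took 0.307%, 0.213% and 0.316% and was highest in LPS3. Chromosome 16, which carries the ribosomal repeats and the MHC in chicken, took 5.27%, 3.27% and 3.94% of counts. The coding models over the repeats had the same order of libraries. So did its MHC genes BLB2 (0.490%, 0.245% and 0.310% of counts) and BLB1 (0.552%, 0.299% and 0.372%), while the MHC genes BF2 and BF1 were highest in LPS3. rRNA copies are near-identical, so the division of counts among them is uncertain. These shares move with every other share of a library's total, and their part in the differences described below was not tested.

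**Figure D1:**
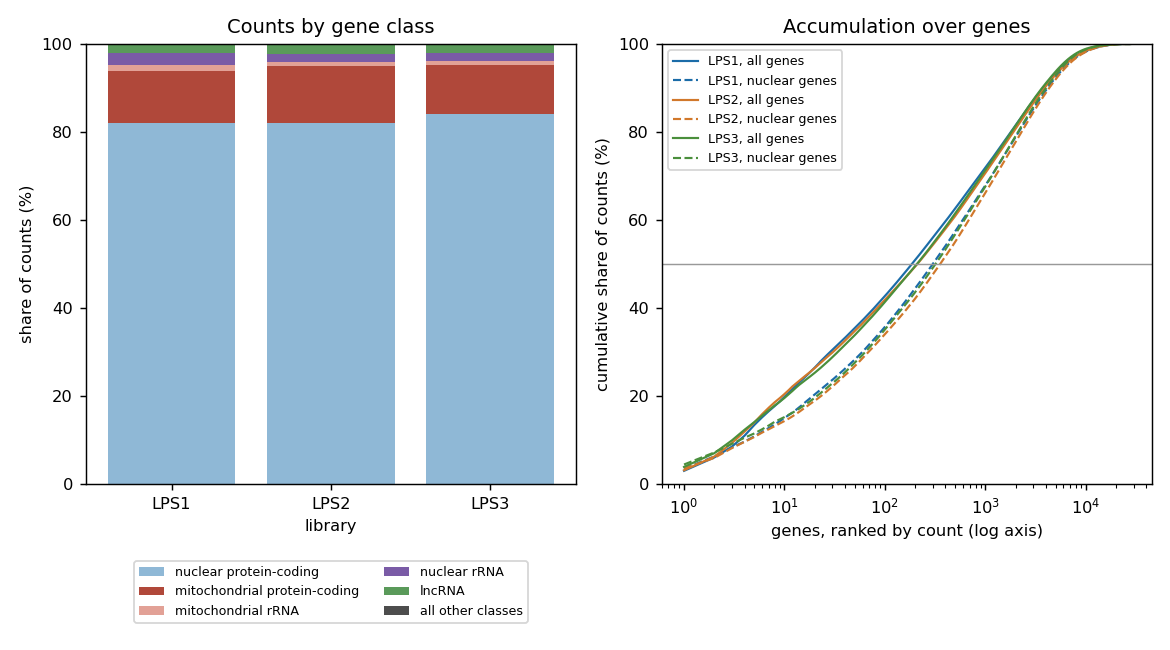
Left, share of counts (%) by gene class in each LPS library; right, cumulative share of counts (%) over genes ranked by count (log axis), for all genes (solid lines) and nuclear genes (dashed lines), with a grey line at 50%. Mitochondrial protein-coding genes took 11.1% to 12.9% of counts, and the 3 curves lie close together, crossing 50% at 186 to 211 genes.

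Counts were concentrated in few genes, to a like degree in the 3 libraries. By the mean share of the 3 libraries, 207 genes held 50% of all counts. The number was 186 in LPS1, 211 in LPS2 and 208 in LPS3. The 10 largest genes of each library took 20.0% ± 0.460 of its counts and the 100 largest 42.0% ± 0.686 (SD, n = 3). Among nuclear genes alone, 332 genes held 50%.

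By mean FPKM, the 2 most abundant transcripts were mitochondrial, and the nuclear gene FTH1 came next. By mean share of counts FTH1 was first, with 3.37% against 3.07% for COX3. COX3, a subunit of cytochrome c oxidase (ENSGALG00010000024, chromosome MT, 8700 to 9483, plus strand), had 29380.3, 30919 and 30296 FPKM, and the subunit gene COX1 had 12100.4, 16206 and 14343 FPKM. COX2, another subunit of the same complex, had 27514, 29795 and 16332 FPKM, so that LPS3 was the low library for COX2 while COX3 was nearly level. The coefficient of variation (CV, the SD divided by the mean of the 3 libraries) was 0.294 for COX2 and 0.0256 for COX3. The ATP synthase subunit gene ATP6 had 9738 ± 609 FPKM and CYTB, the cytochrome b gene of complex III, had 9022 ± 1407 FPKM. Among the mitochondrially encoded subunits of complex I, ND4 was highest at 3129 ± 147 FPKM and ND6 lowest at 372 ± 64.7 FPKM. ATP8, which overlaps ATP6 on the same strand and has a model of only 165 bases, had 4911, 5058 and 5022 FPKM, and a length this short makes FPKM uncertain. Per length, mitochondrial genes took 29.1% ± 2.22 of summed FPKM (SD, n = 3), more than their 13.1% of counts.

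Iron storage headed the nuclear genes. FTH1, the ferritin heavy chain gene (ENSGALG00010026002, chromosome 5, 16382075 to 16387054, minus strand), had 18119, 18944 and 23452 FPKM and was the first nuclear coding gene in each library, highest in LPS3. Its mean of 20172 ± 2870.3 FPKM (SD, n = 3) compares with 7523 ± 849.7 FPKM for ACTB, the beta-actin gene (ENSGALG00010021232, chromosome 14, 4180681 to 4184906, minus strand), and 7244 ± 796 FPKM for CD74, the MHC class II invariant chain gene (ENSGALG00010013450, chromosome 13, 12750058 to 12755985, plus strand). These 3 genes filled the first 3 places in every library, while ACTB came before CD74 in LPS2 only. The FPKM ratio of FTH1 to ACTB was 2.55, 2.23 and 3.37. CD74 overlaps TCOF1 on the opposite strand, and the sources used here do not state strand handling. The same uncertainty holds for other genes named in this text. Among them are CTSS (overlapping SSR2), BLB1 (BLEC1), CTSZ (NELFCD), CST3 (DSTN), DMA (BRD2), HSPA5 (RABEPK) and GNLY (POLD2). SAA overlaps HPS5 on the same strand. SAT1, a polyamine acetyltransferase gene, had 3007, 2342 and 2671 FPKM, and LTA4H, which makes leukotriene B4, had 1519.9, 1425 and 1482 FPKM. LPS1 was the highest library for both, and LTA4H was among the steadiest of the abundant genes, with a CV of 0.0322. GAPDH, a glycolytic enzyme gene, had 1367, 1407 and 1448 FPKM, and CST3, which encodes the cathepsin inhibitor cystatin C, had 1055, 1168 and 1110.3 FPKM. These were also near level, whereas RSFR, a ribonuclease gene of leukocytes, had 727, 947 and 1343 FPKM and was highest in LPS3.

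Below the first 3 places the libraries shared most, but not all, of their leading genes. Of the 30 most abundant nuclear coding genes of each library, 18 were shared by all 3, out of 43 that were in at least 1 of the sets. For the first 100 genes, 76 were shared of 124. The 30 named genes of highest mean together took 27.5%, 26.6% and 28.7% of nuclear FPKM. Among them the highest value exceeded the lowest at least 2-fold for 6 genes, and 8 had a CV under 0.1.

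**Figure D2:**
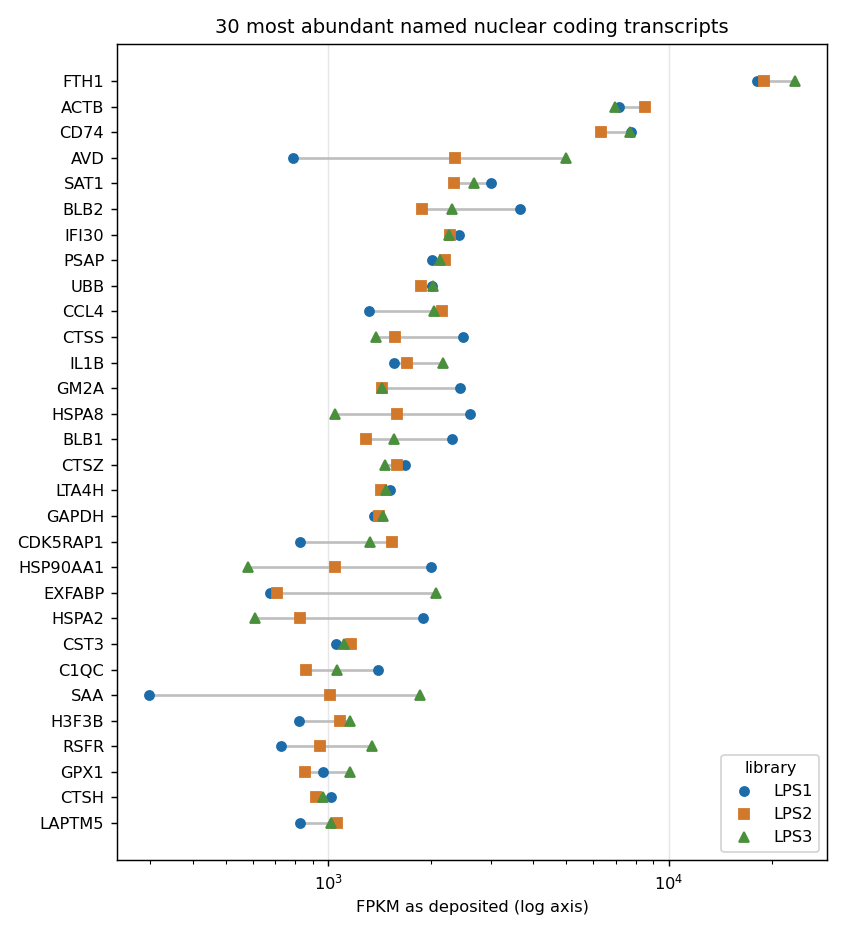
FPKM (log axis) of the 30 named nuclear coding genes of highest mean, ordered by that mean; each symbol is a library and each grey bar runs from the lowest to the highest of the 3. FTH1 stands above the rest in all 3 libraries, and the bars of AVD (789 to 4984 FPKM) and SAA (298 to 1860.0 FPKM) are the longest.

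Lysosomal genes were more numerous among the abundant nuclear transcripts than those of any other list. Of 41 lysosome and phagocytosis genes, 39 reached a mean of 1 FPKM and 14 were among the 100 highest nuclear coding genes. They took 6.34%, 5.24% and 5.10% of nuclear FPKM, most in LPS1. By mean share the lysosomal list (5.56%) was not first. The iron and redox (8.60%), cytoskeleton and translation factor (5.77%) and macrophage identity (5.60%) lists were above it. PSAP, the precursor of the saposins that activate sphingolipid breakdown (ENSGALG00010020103, chromosome 6, 12654044 to 12679456, minus strand), had 2014, 2199 and 2132 FPKM with a CV of 0.0442. GM2A, the ganglioside activator gene (ENSGALG00010017346, chromosome 13, 12613744 to 12617706, minus strand), had 2444, 1443 and 1442 FPKM, and LPS1 stood above the other libraries, which were level. The cathepsin genes CTSZ and CTSH had 1575 ± 107 FPKM and 969 ± 48.7 FPKM, and CTSB had 618 ± 108 FPKM. CTSK, a cathepsin gene best known from bone-resorbing osteoclasts, had 175, 90.1 and 39.4 FPKM, highest in LPS1 and lowest in LPS3. IFI30, a lysosomal thiol reductase that unfolds antigens, lay outside the list and had 2426, 2276 and 2256 FPKM. CTSD, the aspartic protease cathepsin D, was much lower at 42.4 ± 8.55 FPKM.

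Among antigen presentation genes the class II beta chain genes BLB2 and BLB1 were above the class I chain genes. The 25 genes of the list, 24 of them at 1 FPKM or more, took 5.87%, 4.10% and 5.00% of nuclear FPKM. CD74 belongs to this list and to the macrophage identity list. BLB2, a class II beta chain gene (ENSGALG00010003022, chromosome 16, 2192779 to 2194325, plus strand), had 3650.5, 1889.9 and 2315 FPKM, and its neighbour BLB1 (ENSGALG00010002991, chromosome 16, 2185532 to 2187386, minus strand) had 2306, 1290.4 and 1559 FPKM. Both were highest in LPS1 and lowest in LPS2, and the FPKM ratio of BLB2 to BLB1 stayed at 1.58, 1.46 and 1.48. DMA and DMB2, which encode chains of the class II peptide-loading chaperone, had 509 ± 82.7 FPKM and 387 ± 31.8 FPKM. The class I heavy chain genes BF2 and BF1 had 207, 203.4 and 550.4 FPKM and 134, 144 and 469 FPKM. Both stood high in LPS3 and were nearly level in the other libraries. B2M, the light chain of class I (ENSGALG00010023281, chromosome 10, 1355762 to 1358710, plus strand), had 905, 145 and 415 FPKM, so that it ran with neither heavy chain gene and was lowest in LPS2. BLB1 and BLB2, and likewise BF1 and BF2, are similar in sequence, and reads may be divided between them in different ways. The lipid-presenting molecule gene CD1B had 171 ± 12.9 FPKM.

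The inflammatory list was dominated by a few chemokines and IL1B. Of 41 cytokine and chemokine genes, 28 reached a mean of 1 FPKM. They took 1.72%, 2.26% and 2.32% of nuclear FPKM. CCL4, a chemokine that attracts monocytes and T cells (ENSGALG00010029562, chromosome 19, 906402 to 907528, minus strand), had 1317, 2153 and 2047 FPKM, and a second gene with the same symbol (ENSGALG00010029945) had 4.75, 22.3 and 23.3 FPKM. IL8L2 and IL8L1, the chicken counterparts of interleukin 8, which attracts heterophils, had 205, 502 and 591 FPKM and 101, 318 and 509 FPKM. These 4 chemokine genes and IL1B were lowest in LPS1. Over the list, 13 of the 28 detected genes were lowest there. This is near the share of all genes, 39.3% at 1 FPKM or more and 42.6% at 50 FPKM or more. CCL17, a chemokine that attracts T cells, went the other way at 374, 307 and 140.5 FPKM. The chemokine genes CCL26, CCL5 and CCL20 had 316 ± 69.7 FPKM, 139.6 ± 46.9 FPKM and 139 ± 18.8 FPKM. CCL26 was highest in LPS1 and lowest in LPS2. The decoy receptor gene IL1R2 had 258 ± 27.8 FPKM.

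NOS2, CSF3, IL6, IL10 and IL12B, chosen after their values were seen, had far lower levels than IL1B. NOS2, which makes nitric oxide in activated phagocytes, had 1.43, 31.2 and 13.8 FPKM, and CSF3, the granulocyte colony-stimulating factor gene, had 0.250, 8.86 and 8.63 FPKM. IL6 had 0.373, 2.63 and 1.101 FPKM, the anti-inflammatory cytokine gene IL10 had 3.85, 2.31 and 4.62 FPKM, and IL12B, a subunit of interleukin 12, had 0.205, 0.0354 and 0 FPKM. NOS2, CSF3 and IL6 were lowest in LPS1, whereas IL10 was lowest in LPS2. The FPKM of IL1B was at least 404 times that of IL10 in every library. TLR4, the LPS receptor gene, had 37.3, 76.8 and 102 FPKM and its partner CD14 26.0, 34.6 and 20.7 FPKM. LY86, which encodes a partner of a TLR4-related receptor, was named after its values were seen and had 531, 506 and 514 FPKM, a CV of 0.0245.

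Early-response and stress genes differed in which library they favoured. The 28 immediate early and stress response genes, 27 of them detected at 1 FPKM, took 1.34%, 1.75% and 1.48% of nuclear FPKM, and 19 of the 27 were highest in LPS2. Of all 9580 genes with a mean of 1 FPKM or more, 39.1% were highest in that library. NFKBIA, the inhibitor of NF-kB, had 724, 962 and 943 FPKM, the phosphatase gene DUSP1 had 661, 929.7 and 864 FPKM and the transcription factor gene FOS had 565, 617 and 448 FPKM. NFKBIZ, a co-regulator of NF-kB targets, had 39.9, 102 and 128 FPKM, with LPS1 the low library. Heat shock and chaperone genes took 3.25%, 1.92% and 1.38% of nuclear FPKM with LPS1 highest and LPS3 lowest. HSPA8, the constitutive Hsc70 chaperone gene (ENSGALG00010025592, chromosome 24, 3128424 to 3133777, plus strand), had 2613, 1593 and 1047 FPKM, HSP90AA1 (ENSGALG00010016869, chromosome 5, 48992856 to 49000175, minus strand) had 2006, 1044 and 581 FPKM, and HSPA2, an Hsp70 family gene (ENSGALG00010017470, chromosome 5, 52384531 to 52387031, minus strand), had 1902, 824 and 610.0 FPKM. All 3 were highest in LPS1 and lowest in LPS3, and so was BAG3, a co-chaperone of Hsp70, at 120.1, 36.0 and 21.7 FPKM. Of the endoplasmic reticulum chaperone genes, HSPA5 had that order too, with 742, 371 and 345 FPKM, whereas HSP90B1 was nearly level at 255, 239 and 259 FPKM.

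Complement and iron genes were carried by a few members. Of 19 complement genes 11 reached 1 FPKM, and C1QC and C1QA, chains of the C1q molecule that opens the classical pathway, were the highest. CLU, an extracellular chaperone gene counted in the list, came next by mean with 644, 104 and 539 FPKM, followed by the third chain gene, C1QB. C1QC had 1397, 862 and 1059 FPKM, C1QA had 1077, 790.4 and 879 FPKM and C1QB had 294, 301 and 303 FPKM. The B chain was level across the libraries, with a CV of 0.0159, while C1QC and C1QA were highest in LPS1 and lowest in LPS2. The 3 genes are neighbours on chromosome 21. The terminal component genes C5, C6, C8A and C8B all had means under 1 FPKM. Of 36 iron and redox genes, 35 reached 1 FPKM and took 8.07%, 8.22% and 9.50% of nuclear FPKM, most of it FTH1. HMOX1, the heme oxygenase gene, had 842, 472 and 471 FPKM, and the iron exporter gene SLC40A1, named after its values were seen, had 88.9, 61.2 and 27.3 FPKM. Both were highest in LPS1, the library where FTH1 was lowest. GPX1, a glutathione peroxidase gene, had 968, 854 and 1161 FPKM.

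AVD, SAA and EXFABP varied widely for such abundant genes. AVD, the gene of the biotin-binding protein avidin (ENSGALG00010011634, chromosome Z, 9717630 to 9719023, plus strand), was the fourth nuclear coding gene by mean and had 789, 2363 and 4984 FPKM. SAA, the acute-phase serum amyloid A gene (ENSGALG00010024441, chromosome 5, 12095947 to 12102076, minus strand), had 298, 1011 and 1860.0 FPKM, and EXFABP, a lipocalin that binds bacterial siderophores (ENSGALG00010028912, chromosome 17, 1177676 to 1180692, minus strand), had 674, 709 and 2072 FPKM. For each of the 3 LPS3 was highest and LPS1 lowest, although EXFABP was nearly level between LPS1 and LPS2. S100A12, a calcium-binding protein gene of granulocytes and activated phagocytes (ENSGALG00010028370, chromosome 25, 1707065 to 1708503, minus strand), had 32.4, 209.6 and 920.4 FPKM, the largest CV (1.21) among named genes with a mean of at least 50 FPKM. ACOD1, which makes the antimicrobial metabolite itaconate, had 18.2, 114 and 244 FPKM, and AVR7, an avidin-related gene near AVD on chromosome Z, had 19.8, 217 and 373 FPKM. Both followed the order of AVD. The lipid droplet gene G0S2 had 35.3, 189.6 and 255 FPKM, and the stress-induced mTOR inhibitor gene DDIT4 had 14.6, 43.6 and 96.0 FPKM; the 2 were lowest in LPS1 as well. AVD and AVR7 belong to a family of similar genes, which makes the division of reads between them uncertain. G0S2, AVR7 and DDIT4 were described after their values were seen.

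LPS2 was the low library for another set of named genes. CCDC152 had 559, 3.19 and 931 FPKM and SELENOP1, the selenoprotein P gene on the opposite strand that it overlaps, had 479.6, 1729 and 627 FPKM. Their summed FPKM was 1038, 1732 and 1559, so the sum was highest in LPS2 while CCDC152 alone was nearly absent there. Without known strand handling, reads of the pair cannot be told apart. The interferon-stimulated gene IFI6 had 111, 10.3 and 42.4 FPKM and the ribosomal protein gene RPS15A had 501, 139.8 and 415 FPKM. Each was lowest in LPS2, as was CLU. RPS15A was not typical of its list, where 19 of 65 detected genes were lowest in LPS2 and 46 in LPS1. Of 21 detected interferon-stimulated genes, 12 were lowest in LPS2, against 29.8% of all genes at 1 FPKM or more. The interferon-induced genes IFIT5 and OASL had 125, 43.2 and 119 FPKM and 93.4, 34.3 and 57.1 FPKM. MX1, an antiviral GTPase gene chosen after its values were seen, had 1.81, 1.03 and 0.0808 FPKM.

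**Figure D3:**
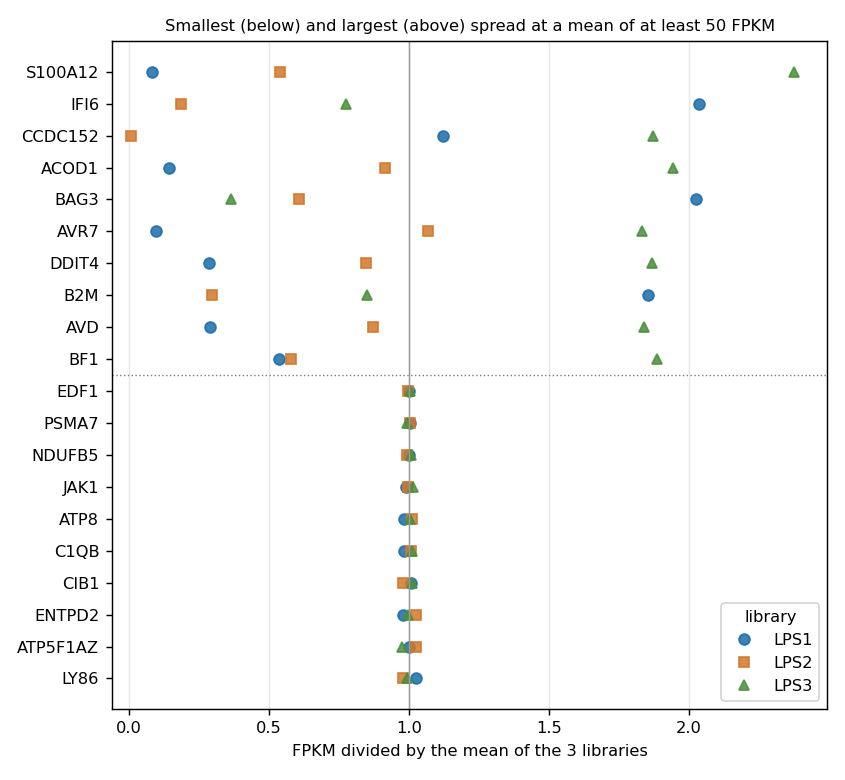
FPKM of each library divided by the mean of the 3, for the 10 named genes of largest CV (above the dotted line) and the 10 of smallest CV (below it) among genes with a mean of at least 50 FPKM. LPS3 is highest for 7 of the genes above the line and LPS1 for 3 (IFI6, BAG3 and B2M), while all symbols of the 10 genes below the line lie close to 1. Of all 49 genes at that level with a CV over 0.5, 28 were highest in LPS1, 6 in LPS2 and 15 in LPS3.

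The named genes of smallest CV came from several functions. They included C1QB, LY86 and ATP8, given above. EDF1, a transcriptional coactivator gene (ENSGALG00010028462, chromosome 17, 1225878 to 1229365, plus strand), had 108, 108 and 109 FPKM, a CV of 0.00457. The proteasome subunit gene PSMA7 had 70.4, 70.4 and 69.7 FPKM and NDUFB5, a complex I subunit gene, had 69.0, 68.4 and 69.4 FPKM. JAK1, the cytokine receptor kinase gene, had 56.9, 57.3 and 58.3 FPKM. Among EDF1, PSMA7, NDUFB5 and JAK1 the largest CV was 0.0124.

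Over all genes the libraries differed by more than counting error. The median CV of the 9580 genes with a mean of at least 1 FPKM was 0.245, where counting error alone gives a median of 0.0321. It was 0.294 for genes at 1 to 10 FPKM, 0.180 at 10 to 100 and 0.175 above 1000, so it stopped falling once the level passed 10 FPKM. The biological coefficient of variation common to 16764 genes was 0.446 by edgeR. Across 9580 genes, which are not independent replicates and share their libraries, Pearson's r of log2(FPKM + 0.1) was 0.904 for LPS1 and LPS2, 0.927 for LPS1 and LPS3 and 0.922 for LPS2 and LPS3. A difference over 2-fold was found for 18.3%, 14.2% and 14.7% of genes in these pairs. As a check for a library deposited more than once, the chi-square per degree of freedom between the counts of a pair was at least 107, so the 3 were counted as separate libraries. Of the 49 genes with a mean of at least 50 FPKM and a CV over 0.5, 28 were highest in LPS1, 6 in LPS2 and 15 in LPS3. For all 831 genes at that level the numbers were 260, 266 and 305.

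Whole gene groups also differed between libraries. For each group the median over its detected members of the log2 ratio of a library to the mean of the 3 is given below relative to the same median over all 9580 genes. Ribosomal protein genes had -0.16, -0.08 and 0.24, and 56 of 65 were highest in LPS3, against 31.0% of all 9580 genes. Cell cycle genes had -0.53, 0.06 and 0.27, and 18 of 23 were lowest in LPS1, against 39.3% of all genes. Nuclear genes of oxidative phosphorylation had 0.12, -0.24 and 0.15, with LPS2 the low library for 31 of 44, against 29.8% of all genes. Macrophage identity genes had 0.08, -0.02 and -0.03, and iron and redox genes had 0.02, 0.01 and 0.04. Interferon-stimulated genes had 0.29, -0.60 and -0.16, and heat shock genes had 0.25, -0.07 and -0.17. The 29 cell cycle genes had a median of 3.15 FPKM and took a mean of 0.0461% of nuclear FPKM. PCNA, the DNA polymerase clamp gene, had 21.7 ± 3.23 FPKM. TOP2A, a topoisomerase gene of dividing cells, had 2.37 ± 0.739 FPKM.

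**Figure D4:**
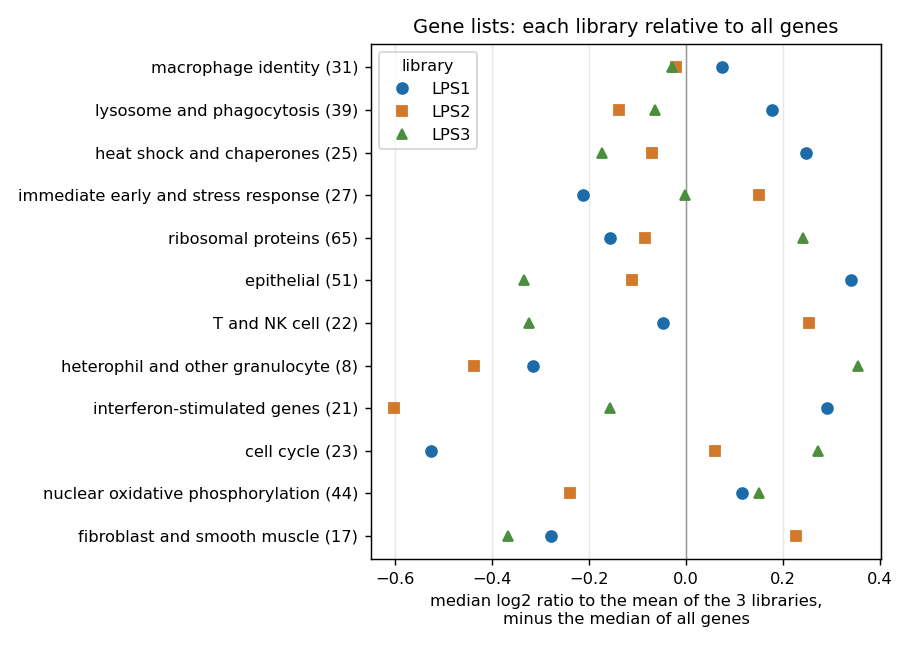
Median over detected genes of each list (number in brackets) of the log2 ratio of a library to the mean of the 3, minus the median of all genes; each symbol is a library and 0 is the median of all genes. Macrophage identity genes lie between -0.03 and 0.08, while epithelial genes run from -0.33 (LPS3) to 0.34 (LPS1).

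Gene lists of other ileal cell types each took a smaller share of nuclear FPKM than the macrophage identity list. This did not hold gene by gene. GUCA2B and GNLY, described below, had means of 760 and 606 FPKM, above CSF1R at 309 FPKM. The macrophage identity list took a mean of 5.60% of nuclear FPKM. Of this, 2.58% came from CD74, which is also in the antigen presentation list. In bulk RNA, fewer cells of a type and less RNA per cell cannot be told apart. Listed symbols that matched no gene add nothing to a share, and the lists differ in how many did. Epithelial genes, 51 of 58 at 1 FPKM or more, took 0.795%, 0.541% and 0.445% of nuclear FPKM. FABP2, the enterocyte fatty acid binding protein gene, had 339.6, 219 and 135 FPKM, FABP6, an ileal bile acid binding protein gene, had 334, 114 and 176 FPKM, and the adhesion molecule gene EPCAM had 102, 73.5 and 72.2 FPKM. FABP2 was highest in LPS1 and lowest in LPS3, and the list as a whole had that order. The FPKM ratio of CSF1R to EPCAM was 2.81, 4.85 and 3.94. GUCA2B, a gut peptide gene of the uroguanylin family named after its values were seen, had 1011, 660.4 and 610.0 FPKM and stood above every gene of the epithelial list. The epithelial share and the heat shock share ranked the 3 libraries alike, and the part of the former in the latter was not tested.

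Lymphocyte genes were detected with a narrow profile. Of 28 T and NK cell genes, 22 reached 1 FPKM and took 0.307%, 0.331% and 0.250% of nuclear FPKM. GNLY, a granulysin gene of cytotoxic lymphocytes, accounted for most of this at 659, 639 and 521 FPKM. The granzyme gene GZMA had 39.5, 63.6 and 50.8 FPKM, and the T cell receptor complex genes CD3D and CD3E had 43.8, 54.6 and 43.6 FPKM and 27.1, 44.3 and 33.1 FPKM. GZMA, CD3D and CD3E were highest in LPS2. The other T and NK cell markers were far lower. CD8A had a mean of 1.92 FPKM, CD4 had 1.25 FPKM and PRF1 had 1.0997 FPKM. CD8A and PRF1 were also highest in LPS2, whereas CD4 was lowest there. B and plasma cell genes took 0.0793%, 0.0782% and 0.0944%. Only 17 of the 31 symbols of this list matched a gene, and the marker TNFRSF17 did not. XBP1 and BTK, which other cells also express, were the highest of them in LPS1 and LPS2, and IGLL1 was in LPS3. The B and plasma cell genes IGLL1 and JCHAIN had 5.81, 8.13 and 87.7 FPKM and 0.150, 0.942 and 12.4 FPKM. Both were high in LPS3 only. PAX5, the transcription factor that defines B cells, was near 0 at 0.140, 0.0910 and 0 FPKM.

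Granulocyte, blood, dendritic, stromal and nerve cell genes completed the other types. Heterophil genes took 0.156%, 0.226% and 0.514% of nuclear FPKM, and 8 of 17 reached 1 FPKM. The list had 37 symbols, and those without a matching gene, among them the markers MPO and AVBD2, could not contribute. S100A12 supplied most of the difference, and CSF3R, the receptor for granulocyte colony-stimulating factor, had 215, 205 and 292 FPKM. The heterophil cathelicidin gene CATH2 had 1.43, 0.145 and 5.52 FPKM, and whether S100A12 came from heterophils was not tested. Of 17 dendritic cell genes, 13 reached 1 FPKM, led by CD1B and by IRF8 at 107 ± 18.6 FPKM, both of which are also in a macrophage or antigen presentation list. Among the 3 dendritic markers ZBTB46 had 4.37, 7.82 and 10.9 FPKM, while FLT3 and XCR1 were near 0, with means of 0.154 ± 0.0884 FPKM and 0.211 ± 0.254 FPKM. Of 23 endothelial genes, 6 reached 1 FPKM, among them PECAM1, an adhesion molecule gene that leukocytes share, at 15.5 ± 6.66 FPKM, and STAB1, a scavenger receptor gene that macrophages share, at 20.1 ± 2.72 FPKM. The endothelial markers CDH5 and KDR were near 0, at 0.163 ± 0.0539 FPKM and 0.130 ± 0.0710 FPKM. The haemoglobin gene HBA1 had 0.439, 1.48 and 5.35 FPKM, while the erythrocyte markers HBAA, HBG2 and ALAS2 matched no gene. Collagen genes COL3A1 and COL1A2 had 15.4, 31.0 and 14.3 FPKM and 7.01, 10.6 and 8.96 FPKM, and DES, the muscle intermediate filament gene, had 0.0465 ± 0.00841 FPKM. The glial marker SOX10 and the neuronal marker ELAVL4 had means under 1 FPKM, and each was listed at 0 in 1 library.

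**Figure D5:**
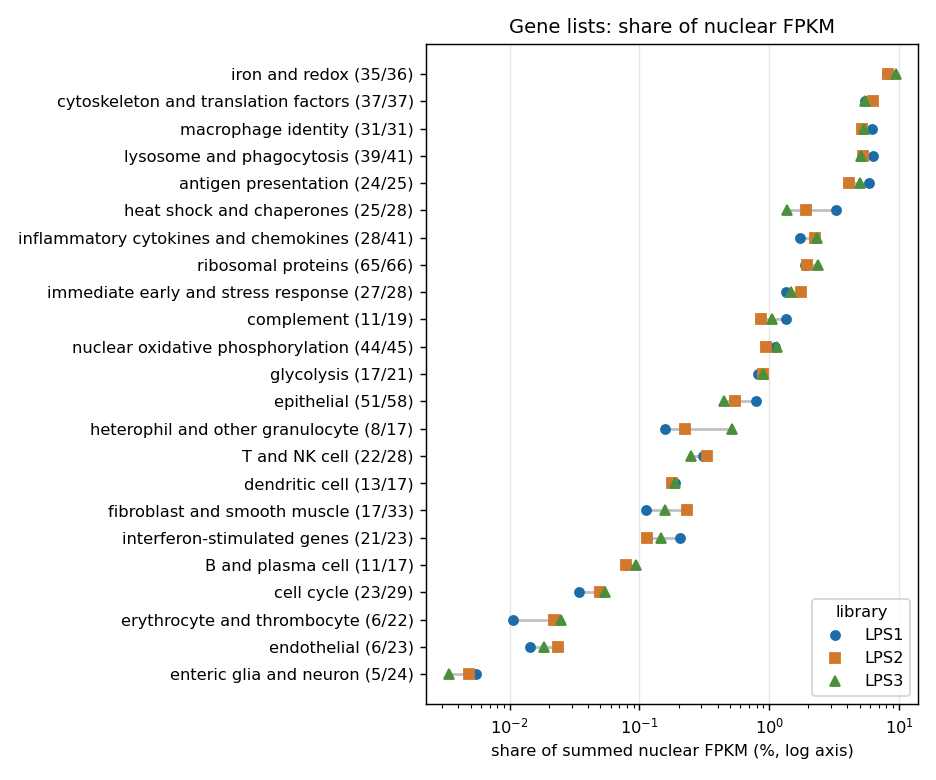
Share of summed nuclear FPKM (%, log axis) taken by each gene list in each library; the numbers in brackets give the genes with a mean of at least 1 FPKM over those in the table. Iron and redox genes take 8.07% to 9.50%, macrophage identity genes 5.21% to 6.22%, and epithelial genes 0.445% to 0.795%.

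The most abundant noncoding transcript of the nucleus was the lncRNA gene ENSGALG00010000588 (chromosome 39, 37680 to 39035, plus strand), with 3609, 3815 and 5440.0 FPKM, and by its mean it stood above every nuclear coding gene but FTH1, ACTB and CD74. In LPS1 BLB2 was above it as well. The lncRNA gene ENSGALG00010019576 (chromosome 4, 9489193 to 9490826, minus strand) had 916, 1194 and 884 FPKM. Below these, the lncRNA of next highest mean, ENSGALG00010018038, had 134, 70.1 and 168 FPKM. The microRNA gene gga-mir-147 was listed at 354, 334 and 364 FPKM. Its 70.0 bases lie within C10H15ORF48, a gene on the same strand that had 162, 142 and 175 FPKM, so reads of the 2 cannot be told apart and polyA libraries do not measure mature microRNAs. All miRNA genes together took 0.00604% of counts.

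The abundant coding genes were shorter and more often on small chromosomes than coding genes at large. The 100 nuclear coding genes of highest mean FPKM had a median length of 1833 bases, as implied by their counts and FPKM, against 3352 for all 8996 nuclear coding genes at 1 FPKM or more. Length enters FPKM as its divisor, so this difference is partly built into the ranking. On the small chromosomes 11 to 39 lay 50% of the 100 and 37.5% of the wider set. Neither difference was tested. Their median CV, which depends on level, was 0.171 against 0.238. Of the 100, 52 belonged to at least 1 of the gene lists.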

How the data were processed

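RNA-seq of polyadenylated RNA was measured in the 3 LPS libraries of sorted ileal macrophages. Per the file headers, the authors deposited raw, whole-number counts by gene and, beside them, FPKM values of their own computation. Tools named in the submitters' processing notes are StringTie 1.3.4d, HISAT2 2.0.4, edgeR and cutadapt 1.9. What each did, the genome build, annotation release and strand handling are not given in the sources used here. Coordinates are those of the deposited table. LPS columns follow the numbers in the sample titles, and 6 columns of per-sample values from the other group were not used.

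The scale of the deposited FPKM values was checked on mitochondrial genes without introns. Relative to the fragment totals that they imply, the gene counts are 76.1%, 78.6% and 76.3% of the total. Gene lengths were derived from counts, FPKM and these totals. Total counts per library, 38492909 to 44786499, set the counting error given with the class shares. With 1 group there was no comparison between groups and no test of one, and values are given as means, SDs and CVs over 3 libraries. Levels of genes are compared per length, in FPKM. Log ratios used a pseudocount of 0.1 FPKM. edgeR 4.0.16 in R 4.3.3 gave the biological coefficient of variation (filterByExpr, TMM, intercept only, checked on simulated data), and DESeq2 1.42.0 gave alternative size factors. Other values were computed in Python 3.11.15 with pandas 2.3.3.

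The library set, the 22 gene lists (842 entries, 636 matched by symbol and 3 by a RefSeq synonym) and the named genes were chosen with earlier results of these data known. Ribosomal protein and mitochondrial genes were added by symbol and chromosome. Genes were named if they were among the 30 nuclear coding genes of highest mean FPKM, the 10 of highest count, the mitochondrial genes, the leading noncoding and chromosome W genes, the first 6 of each list, a cell type marker, or the 10 of largest or smallest CV at a mean of at least 50 FPKM with a symbol. List members outside this rule were chosen after their values were seen, among them TLR4, CTSB, CTSK, CTSD, BF2, CCL5, CCL20, IL1R2, NFKBIZ and TOP2A. Promoter sequences were not analysed here. Alternatives were other scalings, filters, pseudocounts and denominators, and leaving out each library.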

Additional observations from a re-analysis of the deposited data

How the results depend on the processing

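Of 119 values recomputed under another scaling, filter, pseudocount or denominator, 86 stayed within a tolerance that differed by kind of value. It was the SD between libraries for shares and list medians, and 1.5 times for counts. For the median CV and the biological coefficient of variation it was the SD of the values with each library left out. For the correlation it was the SD of the pairs. Where libraries vary most, large shifts pass, such as heat shock genes from 2.18% to 1.54%. Leaving out 1 of 3 libraries cannot move a mean by its SD, so that measure does not apply there; of 255 named genes, the mean moved over 1.5 times for 13 without LPS1, 8 without LPS2 and 18 without LPS3. As shares of summed FPKM, protein-coding genes took 93.6%, mitochondrial genes 29.1% and nuclear rRNA 1.53%, and lncRNA took 2.41% of nuclear counts. Genes holding 50% numbered 332 among nuclear genes and 49 by FPKM, and 4926 genes had a mean of 5 FPKM. The median CV was 0.178 at 10 FPKM or more, 0.528 without a filter, and 0.194 to 0.220 with a library left out; an SD from 2 values is smaller in the median by construction. The biological coefficient of variation was 0.819 without a filter. The mean correlation was 0.945 with a pseudocount of 1 and 0.897 with 0.01.

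With mitochondrial genes in the total, list shares shrank by construction, to 3.97% for macrophage identity, 3.94% for lysosome, 1.49% for inflammatory, 3.54% for antigen presentation, 6.11% for iron and redox, 1.08% for immediate early, 1.47% for ribosomal protein, 0.209% for T and NK cell and 0.0597% for B and plasma cell genes. As shares of nuclear counts, where long genes weigh more, inflammatory genes took 1.08%, antigen presentation 4.07%, iron and redox 5.09%, immediate early 1.80%, ribosomal protein 1.24%, T and NK cell 0.164% and B and plasma cell genes 0.109%. Before subtracting the median of all genes, the macrophage identity median was -0.0254 in LPS1 with DESeq2 size factors, -0.0750 and -0.0901 in LPS2 and 0.0251 and 0.0676 in LPS3 with TMM and DESeq2. DESeq2 factors moved the median of all genes by -0.11 in LPS2 and 0.12 in LPS3. Relative to it, 1 of 36 list values changed sign, that of the immediate early list in LPS3, which lay at 0.00.

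No paired analysis was possible because 1 group of 3 libraries was described. With 3 libraries of unstated origin, SDs are imprecise, and means of variable genes rest on single libraries: without LPS3, S100A12 averaged 121 FPKM and AVD 1576. Levels near 0.1 FPKM rest on few counts.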

Other observations

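Chromosome W, carried by female birds only, gave 2845, 3289 and 3716 counts in LPS1, LPS2 and LPS3. Of its 85 genes, 24 had at least 10 counts in each library and 8 a mean of at least 1 FPKM. The W gene ENSGALG00010012103 had 9.09, 8.38 and 7.96 FPKM, nearly level in the 3 libraries, while ENSGALG00010013889 had 1.95, 7.74 and 7.87 FPKM and was low in LPS1. MBD2, a methyl-CpG binding protein gene listed on W, had 1.21, 1.76 and 5.72 FPKM. W genes have similar copies on chromosome Z, so their counts are uncertain. Chromosome Z took 3.46%, 4.46% and 4.62% of counts, with LPS1 the low library, and AVD, AVR7, CCDC152 and SELENOP1 lie on it.

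Matrix metalloproteinase 10 (MMP10) and IL4I1, an amino acid oxidase gene of antigen-presenting cells, were named after their values were seen. MMP10 had 486, 317 and 143 FPKM, highest in LPS1, and IL4I1 had 14.4, 107 and 68.6 FPKM, lowest in LPS1. CDK5RAP1, a mitochondrial tRNA-modifying enzyme gene, was among the 30 most abundant nuclear coding genes with 826, 1542 and 1325 FPKM, and its level was also lowest in LPS1. Nuclear coding genes without a symbol took 6.38%, 5.44% and 5.68% of counts. The highest of them, ENSGALG00010023487 (chromosome 27, 1206469 to 1212622, minus strand), had 1794, 908 and 902 FPKM and was highest in LPS1.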
